A study of Homo sapiens with 6 samples.

Results

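The study matched sequence motifs under DEK peaks to the transcription factors SP1 and USF1, among others, and its most significant motif to PU.1. Described here are the genes SP1 and USF1 and those of their family members, SP2, SP3, SP4 and USF2. They were chosen by name, and they are 6 of the 20163 protein-coding genes annotated on chromosomes 1 to 22, X and Y. Each gene was taken as its body in GENCODE release 44 on GRCh37 plus 10 kb to each side, which gave windows of 378 kb in all. Within these windows lay 3 of the 15017 DEK peaks of replicate 1, 51 of the 152779 DEK peaks of replicate 2 and 2 of the 4453 intervals in which the replicates overlapped by at least 1 bp.

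The DEK protein was precipitated from crosslinked, sonicated chromatin of U937, an established human myeloid cell line grown in suspension, without any treatment. The labels list 2 samples precipitated with a DEK antibody, 2 with an antibody against H3K4me3, the trimethylated lysine of histone H3 that marks active gene starts, and 2 inputs of non-precipitated chromatin, which were not analysed here. The study describes 2 independent DEK experiments under the same conditions. Neither the study nor the labels state whether the replicates came from separate cultures. Peaks are stretches where sequenced fragments piled up over background, and the deposited lists give tags (aligned reads in a peak), the p-value as a score (its negative log10 multiplied by 10), the enrichment over background and a false discovery rate.

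The replicates stood far apart as lists. Replicate 1 held 988363 tags in its peaks with a median of 47 per peak, and replicate 2 held 4172422 tags with a median of 20. Every replicate 1 peak carried a false discovery rate of 100%, whereas the 51 replicate 2 peaks around the SP and USF genes carried 0.78% to 2.35%. The lists give no total of reads per library. The study states only a minimum number of reads per sample, so the exact depth of each library is unknown. The tags of both replicates are thus not on a common scale, and no spread between replicates could be estimated. All results are therefore descriptions without a test, set beside the same share over all protein-coding genes or all peaks. H3K4me3 of both replicates lay within 1 kb of a transcription start site (TSS) in 6 of 10 myeloid marker genes (SPI1, CD33, MPO, CEBPA, CSF3R and FCGR1A, but not LYZ, ELANE, CSF1R or TYROBP). It did so in 1 of 5 erythroid (EPOR), 0 of 4 epithelial and 4 of 4 housekeeping genes, against 58.6% of all protein-coding genes. The myeloid count lay near this share, so it does not tell the cell type.

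SP1 is the founding member of a family of zinc finger proteins that bind the GC box, a GC-rich element of many promoters of widely expressed genes. SP3 binds the same boxes and can raise or lower transcription, SP4 is best known from neurons, and SP2 differs from the others in its sequence preference. USF1 and USF2 are basic helix-loop-helix leucine zipper proteins that bind the E box CACGTG as homodimers or as a heterodimer. Promoters bound by SP or USF proteins frequently lie in open chromatin and carry H3K4me3.

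The letters before the starts of these genes show which of the motifs they hold themselves. Below are the 250 bases upstream of the canonical TSS for USF1, the start that both DEK replicates met, for SP3, the start with the highest-scoring DEK peak at a TSS, and for SP1 and USF2, where no DEK peak entered the stretch. All were read from the GRCh37 genome, 5′ to 3′ on the strand of the gene. Capitals mark matches on either strand to the GC box GGGCGG or to the motifs that the study assigned to SP1, here called SP1 motif 1 (CACAGCC or CACCGCC or CCCAGCC or CCCCGCC) and SP1 motif 2 (CCCCACCC). The GC box and SP1 motif 1 can share letters, as in GGGCGGGG.
USF1 upstream, chr1:161015768-161016017, minus strand: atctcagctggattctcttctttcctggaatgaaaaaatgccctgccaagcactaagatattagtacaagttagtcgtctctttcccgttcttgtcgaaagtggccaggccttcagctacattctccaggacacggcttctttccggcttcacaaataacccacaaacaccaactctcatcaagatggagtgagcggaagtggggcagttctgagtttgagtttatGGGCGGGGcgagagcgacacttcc
SP3 upstream, chr2:174830102-174830351, minus strand: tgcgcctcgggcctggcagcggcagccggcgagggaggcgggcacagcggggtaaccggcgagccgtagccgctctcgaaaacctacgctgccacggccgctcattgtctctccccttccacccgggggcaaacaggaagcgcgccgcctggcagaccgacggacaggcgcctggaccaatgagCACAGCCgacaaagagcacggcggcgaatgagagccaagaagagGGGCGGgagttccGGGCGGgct
SP1 upstream, chr12:53773710-53773959, plus strand: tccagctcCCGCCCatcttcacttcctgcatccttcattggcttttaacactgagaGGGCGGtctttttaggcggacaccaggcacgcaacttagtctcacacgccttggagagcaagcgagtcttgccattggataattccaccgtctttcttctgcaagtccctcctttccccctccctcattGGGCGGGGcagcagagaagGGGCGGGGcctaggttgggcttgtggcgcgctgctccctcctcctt
USF2 upstream, chr19:35759615-35759864, plus strand: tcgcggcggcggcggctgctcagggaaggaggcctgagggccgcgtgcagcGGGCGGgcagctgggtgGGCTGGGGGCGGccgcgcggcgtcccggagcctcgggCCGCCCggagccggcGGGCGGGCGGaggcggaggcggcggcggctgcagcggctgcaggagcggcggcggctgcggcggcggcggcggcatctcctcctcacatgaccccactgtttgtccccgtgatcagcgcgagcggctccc

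All 6 genes held a GC box in these 250 bases, as did 59.18% of the 19862 promoters searched. USF2 held 5 boxes, SP1 and SP4 held 4 each, SP2 and SP3 held 2 each and USF1 held 1, against 36.82% of promoters with at least 2 and 12.89% with at least 4. SP1 motif 1 was present in 6 of 6 genes, against 59.68% of promoters, and SP1 motif 2 in SP4 alone, against 12.84%. The E box CACGTG was present in 0 of 6 genes, against 7.879% of promoters. The only GC box of USF1 began 24 bases before its start, and the closest boxes of SP3 and SP1 began 9 and 46 bases before theirs, whereas the 5 boxes of USF2 lay between 126 and 199 bases away. GC content was 80.8% upstream of USF2, 78.8% for SP4, 70.0% for SP3, 58.0% for SP1, 55.2% for SP2 and 48.8% for USF1, with a median of 63.2% over all promoters. A match of letters describes the sequence and is no evidence that a factor sits there.

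DEK peaks lay in the windows of 3 of the 6 genes in replicate 1 (SP1, SP4 and USF1), where 32.6% of all protein-coding genes had one. In replicate 2 all 6 genes had a peak, where 90.9% of all genes did. A shared interval lay in the windows of USF1 and SP1, so 2 of 6 genes had one against 15.7% of all genes. With 6 genes, none of these counts is read as different from its background. The map of peaks along the genes shows the 3 isolated replicate 1 peaks, of which those of USF1 and SP1 coincided with a replicate 2 peak, and the much denser replicate 2 peaks spread over gene bodies and flanks.

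**Figure D1:**
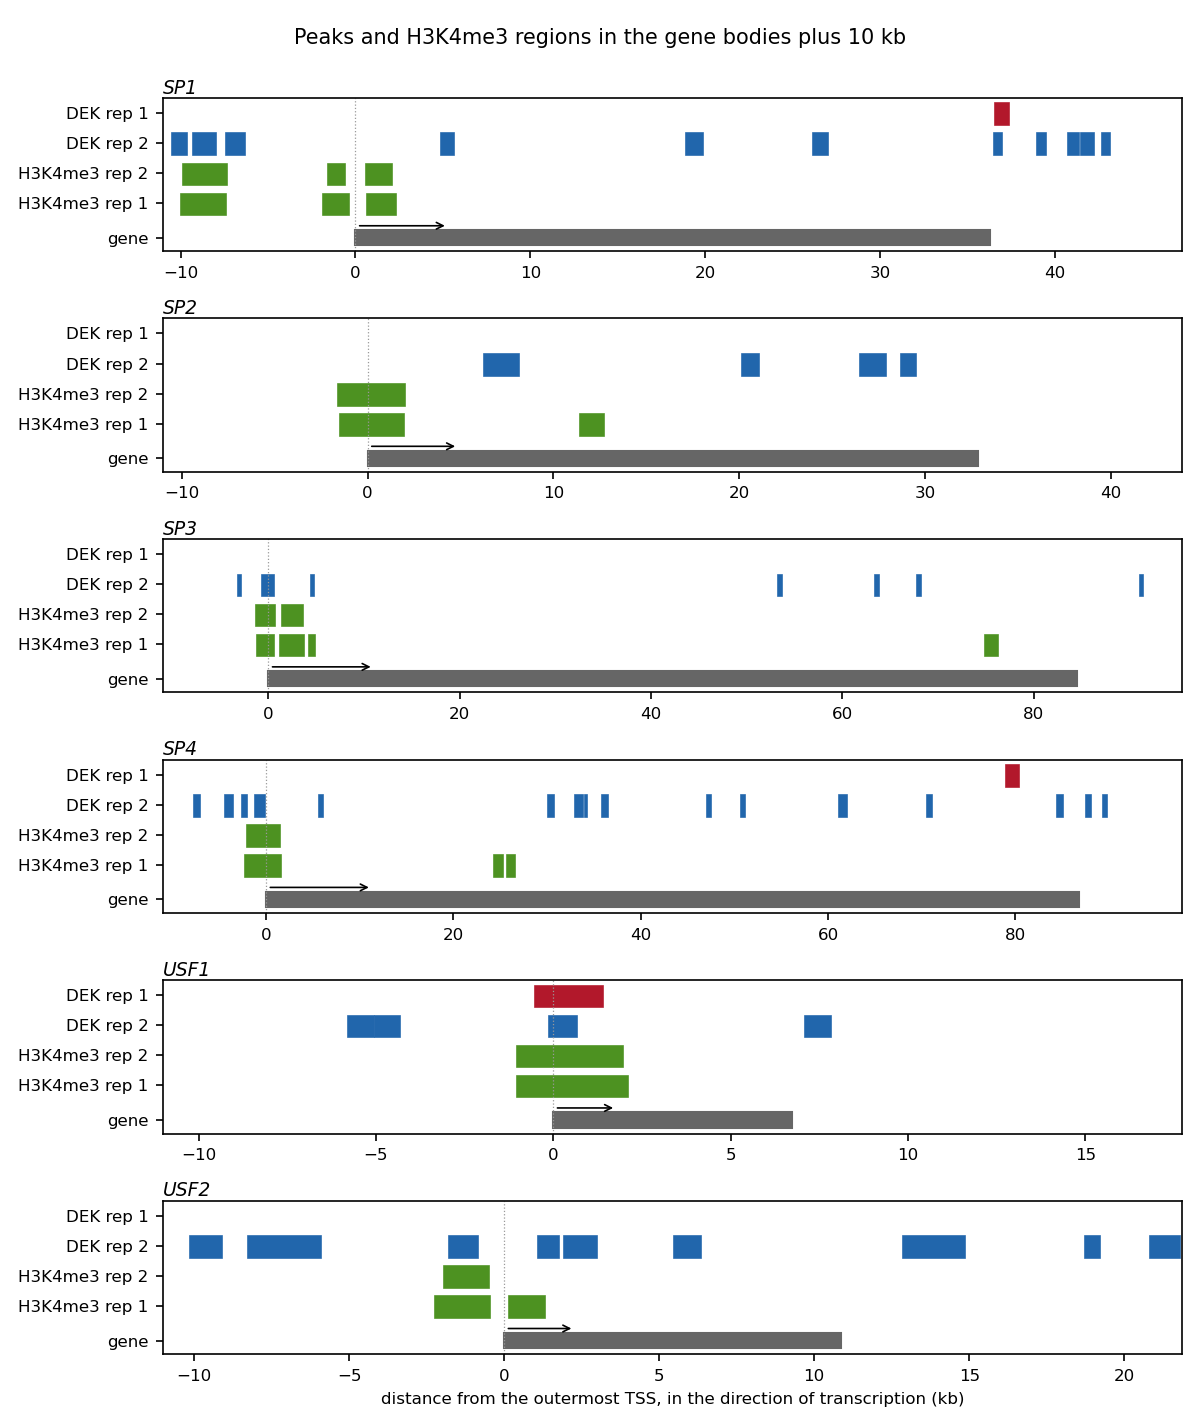
Positions of DEK peaks (red, replicate 1; blue, replicate 2) and H3K4me3 regions (green) along each gene body (grey bar, arrow in the direction of transcription) plus 10 kb to each side, with distance from the outermost TSS in kb on the x axis and 1 panel per gene. Replicate 1 has 1 peak each at SP1, SP4 and USF1, and replicate 2 has between 4 peaks (SP2 and USF1) and 16 peaks (SP4).

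Scaled to window length, replicate 2 peaks were densest at USF2, with 29.16 peaks per 100 kb, a density above that of 93.91% of protein-coding genes. SP1 followed with 19.55 peaks per 100 kb (above 81.45% of genes), then SP4 with 14.98 and USF1 with 14.97, which were practically equal. SP2 and SP3, at 7.575 and 6.697 peaks per 100 kb, lay below the median gene at 9.201 (quartiles 4.005 and 16.59). In the plot of cumulative density the 6 genes thus run from the lower to the upper part of the curve, and the short genes USF1 and USF2 do not have the fewest peaks per length. For USF2 the peaks covered 34.58% of the window, whereas they covered 4.009% of the window of SP3. These densities include the flanks. At SP1 3 peaks had their middle upstream, 5 downstream and 3 in the gene body, whereas all 4 peaks of SP2 lay in its body. The order of the genes thus holds for bodies with flanks and was not computed for bodies alone. Replicate 1 had 0.7937 peaks per 100 kb over all 6 windows, against 0.6679 pooled over all protein-coding genes.

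**Figure D2:**
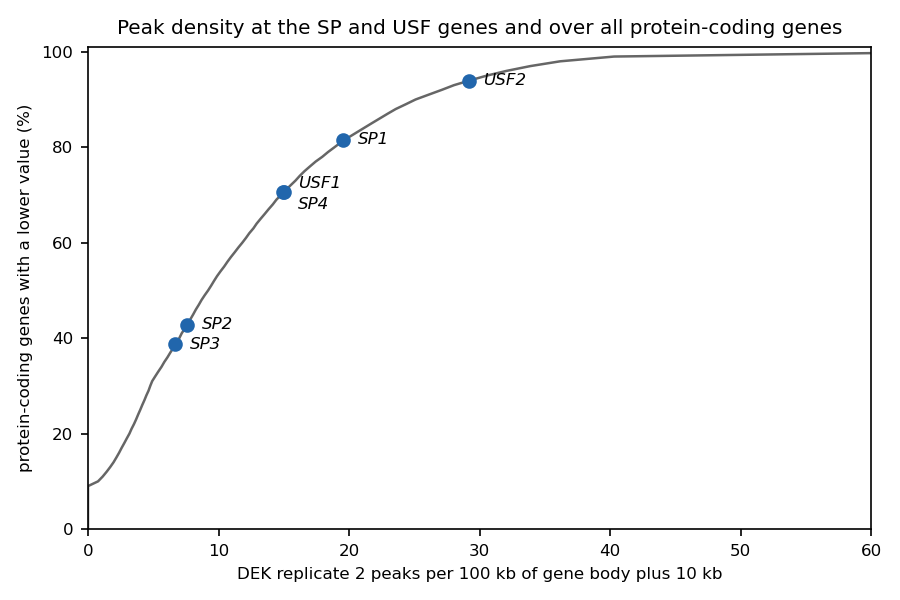
Share of protein-coding genes with a lower replicate 2 peak density (y axis, %) against the density in peaks per 100 kb of gene body plus 10 kb (x axis). The grey line runs over all protein-coding genes and the blue points are the 6 SP and USF genes, from SP3 at 6.697 to USF2 at 29.16; the x axis ends at 60.

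The median number of tags per replicate 2 peak ran from 13 at SP3 to 33 at SP2. The 51 replicate 2 peaks held 1302 tags together, between 12 and 75 each with a median of 23, and were 332 to 2389 bp wide with a median of 759 bp, against 697 bp over the whole list. Their median score was 79.58 and their median fold enrichment 3.98, against 78.28 and 4.58 over the list. The 3 replicate 1 peaks held 86 tags at USF1, 58 at SP4 and 42 at SP1, against the list's median of 47. The plot of tags shows that exact 95% Poisson intervals, which cover counting error only, overlap widely between most replicate 2 peaks, and that a few peaks of SP2, USF2, SP4, SP1 and SP3 stand above the rest.

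**Figure D3:**
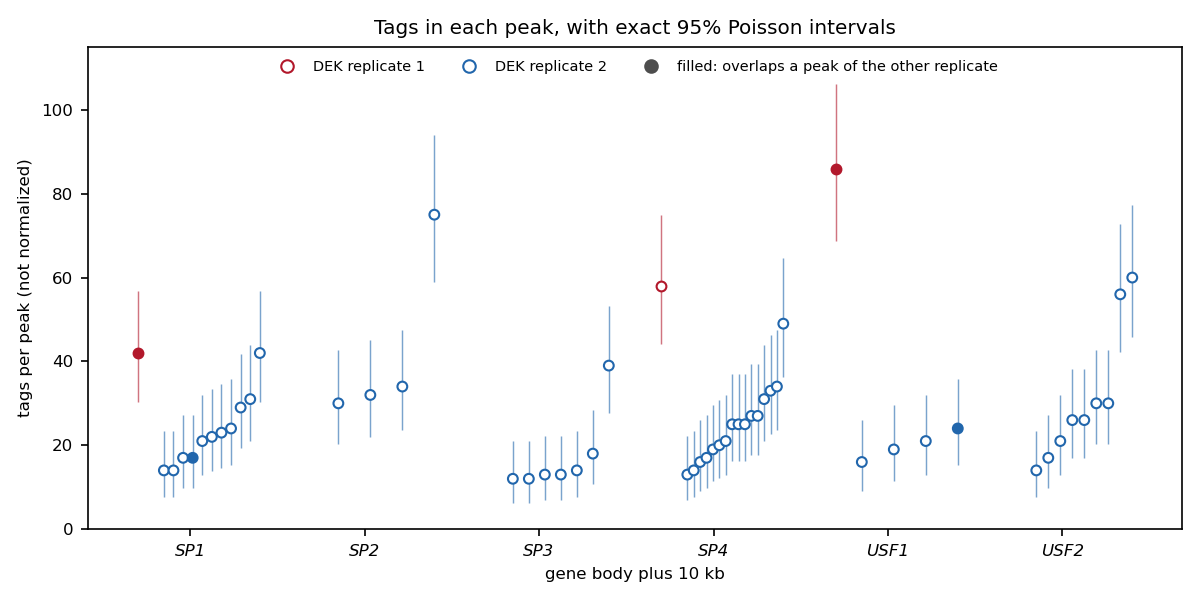
Tags in each DEK peak (y axis, not normalized) in the window of each gene (x axis), sorted within a gene, with exact 95% Poisson intervals as vertical lines. Red is replicate 1 and blue replicate 2, and filled points overlap a peak of the other replicate; the highest values are 86 tags at USF1 in replicate 1 and 75 tags at SP2 in replicate 2.

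At the TSS the genes differed. A replicate 2 peak whose middle lay within 1 kb of an annotated start was present for 4 of 6 genes (SP3, SP4, USF1 and USF2), against 56.9% of all protein-coding genes. A replicate 1 peak was present there for 1 of 6 (USF1), against 8.45%, and a shared interval for 1 of 6 (USF1 again), against 4.38%. The rule takes any annotated start, and SP1 has 3 of them, SP2 4, SP4 5, SP3 and USF1 11 each and USF2 15. With the outermost start only, replicate 2 had a peak for 3 of 6 genes, without USF2. All 6 genes carried H3K4me3 of both replicates within 1 kb of a start, against 58.6% of all genes. Among the 11819 genes with this mark, 71.5% had a replicate 2 DEK peak at a start, 13.28% a replicate 1 peak and 7.09% a shared interval. Among the 7645 genes without any H3K4me3 at a start these shares were 34.6%, 0.9287% and 0.327%. SP1 and SP2 carried the mark and had no DEK peak of either replicate at a start. They were among 3369 marked genes, or 28.5%, without a replicate 2 peak there.

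**Figure D4:**
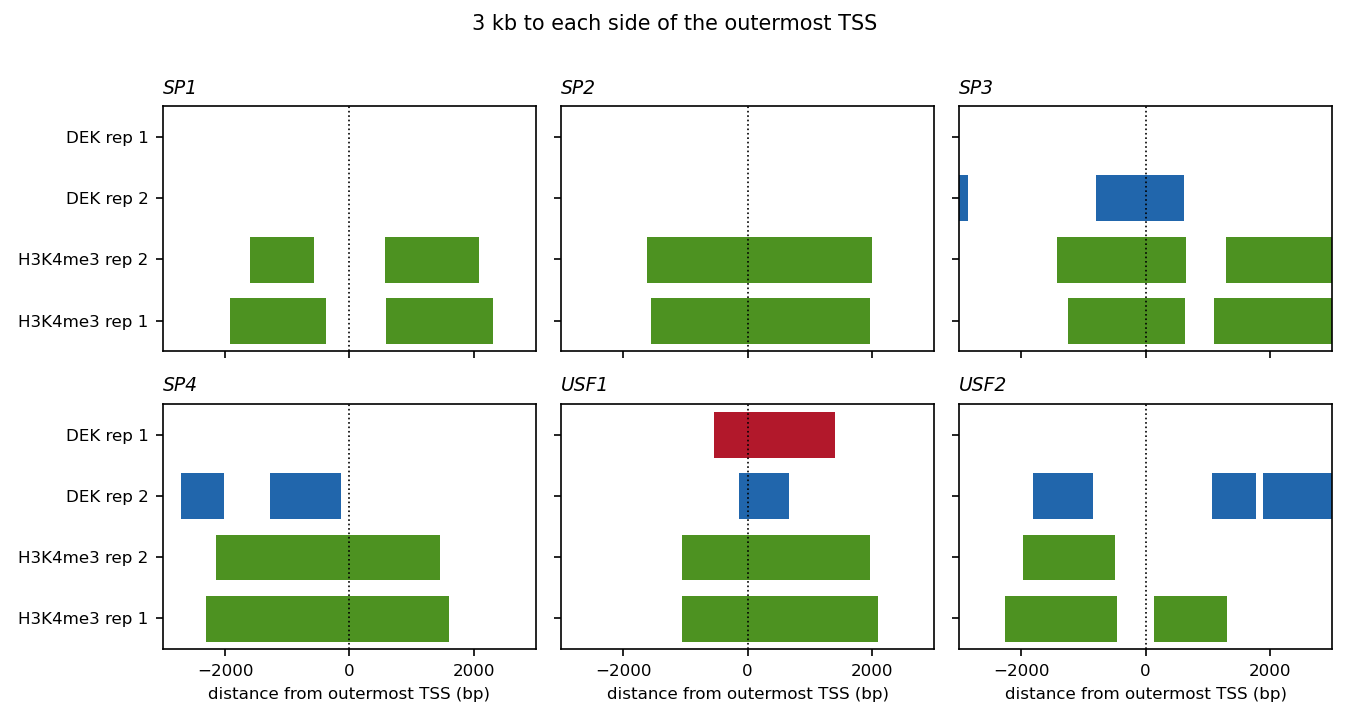
DEK peaks (red, replicate 1; blue, replicate 2) and H3K4me3 regions (green) within 3 kb of the outermost TSS of each gene, with distance in bp along the direction of transcription on the x axis. A DEK peak crosses the outermost TSS at USF1 in both replicates and at SP3 in replicate 2. The outermost TSS of SP1 falls in a gap of the H3K4me3 regions in both replicates, and that of USF2 in replicate 1.

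USF1 (ENSG00000158773), on the minus strand at chr1:161009041-161015767, was the only one of the 6 genes with DEK at a start in both replicates. The replicate 1 peak at chr1:161014359-161016299 held 86 tags (68.79 to 106.2), at score 60.35 and 4.57-fold enrichment. The replicate 2 peak at chr1:161015097-161015911 held 24 tags (15.38 to 35.71), at score 51.29 and 2.75-fold enrichment, and lay wholly inside the first. The peaks were called separately and were 1941 bp and 815 bp wide, so the counts cover unlike lengths. Per kb they held 44.31 and 29.45 tags. The ratio of tags as called was 3.583 (2.257 to 5.893), against a median of 1.95 over all pairs of shared peaks (quartiles 1.393 and 3.025). The summits lay 94 bp apart, against a median of 153 bp. The middle of the shared interval of 815 bp fell 159 bp downstream of the nearest start, in intron 1, and the interval covered 6 of the 11 annotated starts. It covered the first 144 of the 250 bases printed above for USF1, counted back from the start, including the GC box. The interval was weak in replicate 2, where 2.519% of the list had a lower score, and by the lower of both scores it ranked 4132 of 4453. H3K4me3 regions of 3143 bp and 3018 bp spanned the interval in both replicates.

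SP3 (ENSG00000172845), on the minus strand at chr2:174745578-174830101, had the highest-scoring replicate 2 peak at a TSS of these genes and no replicate 1 peak closer than 59610 bp. The replicate 2 peak at chr2:174829491-174830900 held 39 tags (27.73 to 53.31), with a score of 170.74, above 92.68% of the list, and a fold enrichment of 5.73. Its middle lay 94 bp upstream of the outermost start, it covered 3 of 11 starts and the whole stretch of 250 bases printed for SP3, and it overlapped H3K4me3 of both replicates. A start of the long noncoding RNA (lncRNA) gene ENSG00000289296 was closer to the middle of this peak, at 21 bp. The other 6 peaks of SP3 held 12 to 18 tags, below the list's median of 20. A second H3K4me3 region, 1100 bp and 1296 bp downstream in replicates 1 and 2, met no DEK peak. Farther downstream, a region listed in replicate 1 only, at 4167 bp, met the replicate 2 peak with 18 tags. Another of replicate 1 only, at 74785 bp, met none.

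SP4 (ENSG00000105866), on the plus strand at chr7:21467661-21554440, had the most replicate 2 peaks of the 6 genes, 16. The peak closest to the start, chr7:21466383-21467526, held 49 tags (36.25 to 64.78) at a fold enrichment of 2.0, and 0.0373% of the list had a lower fold. It lay upstream, with its middle 707 bp from the start, inside H3K4me3 regions that covered all 5 annotated starts, and it entered 76 of the 250 bases before the canonical start. A start of the lncRNA gene ENSG00000290069 was closer to its middle, at 212 bp. Of the others, 6 lay in intron 3, where they held 13 to 34 tags. The strongest of them, chr7:21497658-21498411, held 31 tags (21.06 to 44) at score 176.71 and 8.85-fold enrichment, above 98.51% of the list. The replicate 1 peak of SP4, chr7:21546533-21547994 in intron 5, held 58 tags (44.04 to 74.98) at score 101.24 and 5.26-fold enrichment, the highest score of the 3 replicate 1 peaks. It lay 3954 bp from the nearest replicate 2 peak, so that SP4 had peaks in both replicates and no shared interval.

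SP1 (ENSG00000185591), on the plus strand at chr12:53773960-53810230, had 11 replicate 2 peaks, and the shortest distance from a peak middle to a start was 4102 bp. Its outermost start, which is also the canonical one, fell in a gap between H3K4me3 regions of 963 bp in replicate 1 and 1144 bp in replicate 2. Of 11050 canonical starts with H3K4me3 of both replicates within 1 kb, 452 (4.09%), those of SP1 and USF2 among them, were covered in neither replicate. The files hold the borders of the H3K4me3 regions and no height, so that the depth of the gap is unknown. An upstream H3K4me3 region, at chr12:53763903-53766535 in replicate 1 and chr12:53764031-53766617 in replicate 2, met 3 replicate 2 DEK peaks with 21, 42 and 29 tags. The closer edge of this region lay 7425 bp and 7343 bp from the start of SP1 in replicates 1 and 2.

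The shared interval of SP1 lay beyond the end of the gene, at chr12:53810477-53810928, and began 247 bp after the last annotated base. The replicate 1 peak held 42 tags (30.27 to 56.77), at score 74.91 and 4.57-fold enrichment. The replicate 2 peak held 17 tags (9.903 to 27.22), at score 69.84 and 3.98-fold enrichment. These peaks were 880 bp and 490 bp wide and held 47.73 and 34.69 tags per kb, and the ratio of tags as called was 2.471 (1.377 to 4.629). The summits lay 137 bp apart. The interval ranked 1594 of 4453 by the lower score, higher than that of USF1. It met no H3K4me3 region, and in the interval 63.84% of all 16-mers (runs of 16 bases) occur at least 100 times in the genome. At USF1 this share was 0.25%. How multiply aligned reads were handled is not given in the sources used here, and the part of repeated sequence in the SP1 interval was not tested.

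SP2 (ENSG00000167182), on the plus strand at chr17:45973516-46006323, had 4 replicate 2 peaks, all inside the gene, with 75, 32, 34 and 30 tags from the start onwards. The first, chr17:45979728-45981684 in intron 1, held the most tags of all replicate 2 peaks around the 6 genes (58.99 to 94.01) and had the highest score, 209.9, above 95.92% of the list. Its middle lay 7078 bp from the nearest start. The H3K4me3 regions of 3510 bp and 3627 bp at the start of SP2 covered all 4 annotated starts and met no DEK peak of either replicate. The nearest replicate 1 peak lay 17964 bp beyond the gene, outside the window, with 45 tags.

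USF2 (ENSG00000105698), on the plus strand at chr19:35759865-35770724, had 9 replicate 2 peaks and no replicate 1 peak closer than 54356 bp. Peaks with 17 tags (9.903 to 27.22) and 30 tags (20.24 to 42.83) had their middles 63 bp and 323 bp from internal starts, in introns 4 and 7 of the canonical transcript. No peak covered the outermost start. The closest upstream, chr19:35758060-35759011, held 30 tags with its middle 1330 bp away and was the only USF2 peak on H3K4me3 of both replicates. A start of the lncRNA gene ENSG00000288942 was closer to its middle, at 448 bp. The outermost start itself fell between H3K4me3 regions 599 bp apart in replicate 1, and in replicate 2 only the upstream region was listed.

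The places and sequences of the replicate 2 peaks were next described over all 6 genes. Of the 51 peaks, 25 had their middle in a gene body (20 in introns and 4 in exons of the canonical transcript and 1 outside it), 14 upstream and 12 downstream. For 15 peaks the nearest annotated start was that of the gene itself and for 36 it belonged to another gene. Of the 51, 8 overlapped H3K4me3 of both replicates, against 7.74% of the whole replicate 2 list. The same was true of 1 of the 3 replicate 1 peaks, that of USF1, against 32.9% of the list, and of 1 of the 2 shared intervals, again USF1, against 33.7%. The lists are not limited to windows around genes, whereas all 6 genes here carried H3K4me3 near a start. These shares therefore come from unlike sets. Seen from the mark, 7 of 15 H3K4me3 regions of replicate 1 and 5 of 9 of replicate 2 in the windows met a replicate 2 DEK peak, where 28.5% and 34.99% of all regions did.

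The 8 peaks on H3K4me3 had a median GC content of 59.25% and a median of 9.903% of 16-mers of high copy number. The 43 other peaks had medians of 47.71% and 39.48%. The peaks at the starts of USF1, SP3 and SP4 had GC contents of 60.37%, 65.96% and 64.51% and at most 2.366% of such 16-mers. Against the medians, 2 of the 3 peaks on the upstream H3K4me3 region of SP1 held 74.77% and 73.75%. These 2 peaks overlapped only an edge of the region, and their middles lay outside it in both replicates. With the middle inside H3K4me3, 5 peaks were on the mark, and they held at most 17.44% of such 16-mers. The median fold enrichment was 3.07 on H3K4me3 and 4.06 elsewhere, and the median numbers of tags were 29.5 and 21. The plot of composition shows most GC-rich peaks near the bottom and the peaks of SP1 mainly in its upper part. In all, 16 of the 51 peaks held more than 50% of 16-mers of high copy number, against 27.5% of the list.

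**Figure D5:**
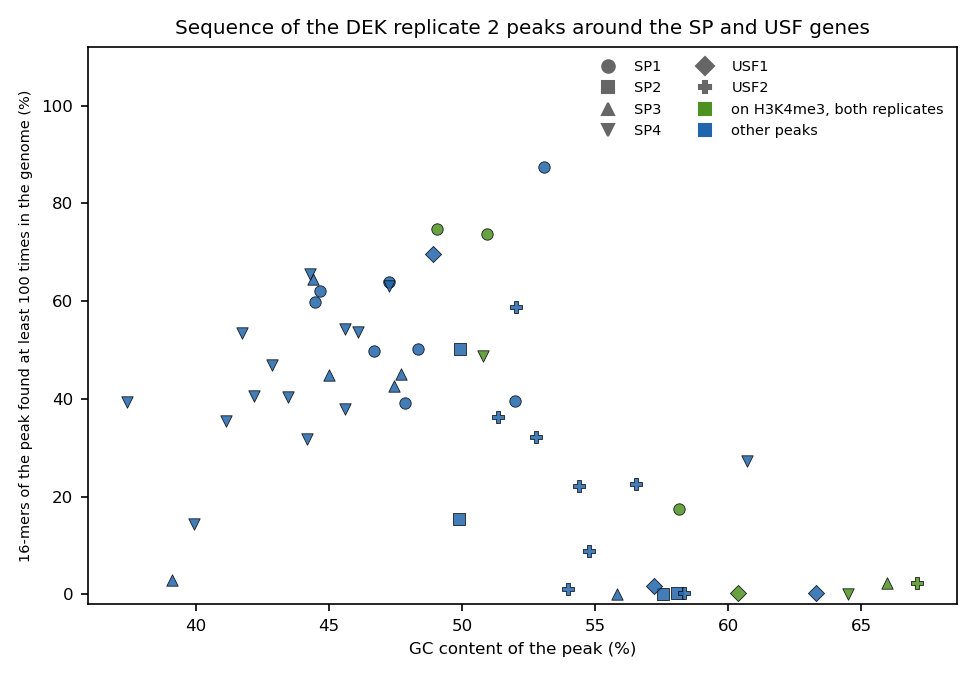
Share of the 16-mers of a peak that occur at least 100 times in the genome (y axis, %) against GC content of the peak (x axis, %), with 1 point for each of the 51 replicate 2 peaks, the shape giving the gene and green marking overlap with H3K4me3 of both replicates. Green points have a median of 59.25% GC and 9.903% high-copy 16-mers, and blue points medians of 47.71% and 39.48%.

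The motifs of the encoded factors were searched within 150 bp to each side of the middle of each peak. An SP1 motif was found in 18 of 51 replicate 2 peaks, against 33.83% of the list, and in 1 of the 2 shared intervals, that of USF1 with 2 matches, against 37.5% of all shared intervals. A GC box was found in 18 of 51 replicate 2 peaks, against 22.01% of the list, which is not limited to windows around genes. The E box CACGTG was found in 1 of 51, against 4.933% of the list, and in 0 of 2 shared intervals, against 5.66%. The single peak with the E box in this window was an intronic peak of USF2, chr19:35761751-35762867.

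The relatives of these factors were described by the same rule. The list held 23 zinc finger genes (SP5 to SP9 and KLF1 to KLF18) and 7 helix-loop-helix genes (USF3, TFE3, TFEB, TFEC, MITF, SREBF1 and SREBF2). A replicate 1 peak lay in the windows of 12 of 30 (32.6% of all protein-coding genes), a replicate 2 peak in 27 of 30 (90.9% of all) and a shared interval in 6 of 30 (15.7% of all), of which 5 were zinc finger genes. At a TSS, replicate 2 had a peak for 10 of 23 zinc finger genes and 5 of 7 helix-loop-helix genes, against 56.9% of all genes. Replicate 1 had one for 3 of 30, KLF5, KLF6 and KLF7, which are named here after their values were seen, against 8.45% of all genes. A shared interval lay at a TSS in 0 of 30, against 4.38%. H3K4me3 of both replicates marked a start of 12 of 23 zinc finger genes and 7 of 7 helix-loop-helix genes, against 58.6% of all genes.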

How the data were processed

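DEK and H3K4me3 ChIP-seq of U937 cells was analysed from peak lists, with samples grouped by their labels. The authors aligned reads to hg19 with Bowtie2 and called peaks in each precipitation with MACS 1.4.1 against non-precipitated chromatin, at default parameters for DEK. Tags per peak are deposited as counts that were not normalized. As deposited, each score is the negative log10 p-value multiplied by 10, and 50 is the lowest. The deposited fold enrichment is a ratio over the local background of MACS, and false discovery rates are deposited in percent. The deposited H3K4me3 files hold positions only, and how their regions were filtered is not given in the sources used here. The named genes were the 6 SP and USF genes, any gene whose start was nearest to a peak around them, and relatives with a shared interval at a TSS, of which there were 0. KLF5, KLF6 and KLF7 were named outside this rule. Members and lists were chosen with earlier results of these data known.

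Peaks were counted where they met a gene body plus 10 kb, and at a TSS where their middle lay within 1 kb of any annotated start of the gene. Starts came from GENCODE release 44 on GRCh37, and the authors may have used another annotation. Tag intervals are exact 95% Poisson intervals, and the ratio of tags has an exact binomial interval. High-copy sequence was counted as 16-mers found at least 100 times in GRCh37 on both strands. Alternatives were other extensions and TSS rules, a score of at least 100, a replicate 2 list of equal length, a larger overlap, each replicate left out and other motif settings. The scripts were tested on simulated data and ran in Python 3.11.15 with pandas 2.3.3, Matplotlib 3.10.9, SciPy 1.17.1, NumPy 2.4.6 and Numba 0.67.0. The result of 1 marker list and 1 sequence are not reported here.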

Additional observations from a re-analysis of the deposited data

How the results depend on the processing

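Across 14 results, 67 alternatives were tried, and 40 of them left the value within 1.5 times or the same count, while 27 moved it. With a score of at least 100, replicate 1 kept 1 peak at 1 gene (SP4) and 0 at a TSS, replicate 2 kept 13 peaks and 1 gene at a TSS (SP3), and shared intervals fell to 0 at 0 genes and 0 at a TSS. In a replicate 2 list cut by score to 15017 peaks, 3 peaks at 3 genes (SP2, SP3 and SP4) and 0 shared intervals at 0 genes remained. Without the extension, replicate 2 had 26 peaks and 1 shared interval at 1 gene (USF1), and with 25 kb replicate 1 had 5 peaks. Sharing that covered 50% or more of both peaks left 1 shared interval at 1 gene (SP1), and so did a limit of 50% high-copy 16-mers, chosen after seeing the data, at 1 gene (USF1) with 1 interval. With either DEK replicate left out, the other alone gave 3 to 51 intervals at 3 to 6 genes and 1 to 4 genes at a TSS. With the middle inside H3K4me3, 5 peaks were on the mark. In place of shared intervals, replicate 2 peaks gave 18 with an SP1 motif and 1 with the USF1 motif, and the GC box alone gave 0 shared intervals. No paired analysis was possible because no result comes from a test and the peak lists were compared by position.

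The exact depth of each library is unknown, no spread between replicates was estimated, and repeated sequence was counted from the genome and not from the alignments.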

Other observations

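For many of the replicate 2 peaks around the SP and USF genes, the nearest annotated start belonged to another gene. The nearest start was often far away, and only 11 of the 51 peaks had their middle within 1 kb of any gene's start. Of the 36 peaks nearest to a start of another gene, 13 were nearest to a protein-coding gene, 12 to a lncRNA, 10 to a miRNA and 1 to a pseudogene. Beyond the end of USF2, a peak at chr19:35772694-35774722 held 60 tags (45.79 to 77.23) with its middle 277 bp from a start of HAMP, the gene of the iron-regulating hormone hepcidin. The 2 peaks farther on were nearest to MAG, which encodes a myelin protein, at 4196 bp and 1856 bp. Beyond the end of USF1, a peak at chr1:161007931-161008701 held 19 tags (11.44 to 29.67) with its middle 203 bp from a start of TSTD1. Beyond SP1, 5 peaks in a row had the start of AMHR2, the receptor gene of anti-Müllerian hormone, as the nearest. The first of them lay 6956 bp from this start, and the last, with 14 tags, 789 bp. In the body of SP4, 8 peaks had the start of MIR1183, a miRNA gene within it, as the nearest, at distances of 4230 to 27752 bp.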
